A study of Mus musculus with 6 samples.

Results

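The genes examined here are 10 transcription factors that direct lineages other than the kidney: Myod1, Nkx2-5, Gata4, Neurod1, Pax6, Sox10, Olig2, Pdx1, Nkx2-1 and Cdx2. They are a named list out of 21757 protein-coding genes of the GENCODE M39 annotation, and the rule for the list uses no measured value, although earlier results of these data were known when it was drawn up. ATAC-seq, in which the Tn5 transposase cuts and tags DNA that is not packed in nucleosomes, was performed on kidney cortex of 3 WT and 3 Acly cKO mice, and all carried the treatment label Control. The WT mice were littermates with floxed Acly alleles and no Cre, as the study's methods state. The Acly cKO mice had the same floxed alleles with Ksp-Cre (Cdh16-Cre), which deletes Acly, the gene of ATP citrate lyase, broadly in renal tubule epithelium and leaves it in the other kidney cells. The labels give no age. The WT libraries carry batch labels 1 and 2 and the Acly cKO libraries 4 and 5, so no batch held both genotypes and their effects cannot be told apart. The values come from a peak call that, by its peak names, pooled the libraries, so genotypes could not be compared, no value has a replicate error, and no test was made. The study also used earlier WT libraries, and whether these entered the pool, and so the read counts given below, is not known here.

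A master regulator is a transcription factor that can set a cell's identity by binding regulatory DNA and switching on the genes of its lineage. Such genes are mostly silent outside their own tissues, and many of them start in CpG-rich DNA that Polycomb complexes keep repressed.

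In kidney, 47 distinct intervals (135 summits) of 279569 overlapped the 10 genes, counted from 3 kb upstream of the gene start to the gene end, and every gene had at least 1. Where an interval held several summits, the one with the best q gave its values. The fold enrichment at that summit had a median of 2.29 over the 47 intervals, beside 2.55 over all intervals, and ran from 1.70, the lowest value in the list, to 13.2 in Pax6. A fold enrichment of at least 5 was reached by 8 of the 47 (17.0%), beside 24.5% of all intervals, and of at least 20 by none, beside 5.59%. The 8 lay in Pax6 and Gata4, 3 each, and in Neurod1 and Myod1, 1 each. A weak interval in bulk tissue cannot tell few cells with open chromatin from many cells with slightly open chromatin.

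Fold enrichment could be turned into reads. In all 749750 summits it was a whole multiple of 0.0655 within 0.05 of a step, which 10.0% of values would meet by chance. It equals the reads over the summit plus 1, divided by a background of 14.3 reads plus 1, and the −log10 p of the authors' caller equalled that of the Poisson probability of those reads within 1% in all 729324 summits that could be compared. The lowest summit in the list held 25 reads and the median interval 38. At this depth the exact Poisson 95% interval of 25 reads is 16.2 to 36.9, so many of the weak intervals below differ by less than counting error. These intervals cover counting error only, and the highest summit of a wide interval is the maximum of many.

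The reference sequence (GRCm39) around the summits of 4 intervals shows what was open at the genes with the highest values. Each is written 5′ to 3′ on the strand of its gene over 101 bases, and capitals mark any match, on either strand, to the 12 short motifs listed with the motif counts.
Neurod1, coding exon 2, chr2:79284630-79284730: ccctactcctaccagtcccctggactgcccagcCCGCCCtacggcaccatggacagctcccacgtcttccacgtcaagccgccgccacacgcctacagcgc
Pax6, intron 6, chr2:105518031-105518131: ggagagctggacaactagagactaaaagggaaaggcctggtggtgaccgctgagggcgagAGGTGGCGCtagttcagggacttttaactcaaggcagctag
Gata4, upstream of the canonical start, chr14:63493481-63493581: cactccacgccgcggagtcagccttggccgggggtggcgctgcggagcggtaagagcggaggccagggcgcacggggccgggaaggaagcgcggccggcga
Myod1, past the gene end, chr7:46028601-46028701: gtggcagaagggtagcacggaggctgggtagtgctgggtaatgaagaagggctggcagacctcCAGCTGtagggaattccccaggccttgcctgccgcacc

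The strongest summits of Pax6 and Gata4 lie where annotated transcripts have untranslated sequence, so 30 bases of each are shown with the same meaning of capitals.
Pax6, chr2:105505769-105505798: ggagcgagcggtgcatttgcatgttgcgga
Gata4, chr14:63482825-63482854: gctttgggaagagtcctgcGGGCGGgcgcc

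Myod1, Nkx2-5 and Gata4 act in mesoderm. Myod1 (ENSMUSG00000009471.6, chromosome 7, 46025870 to 46028526, plus strand) encodes the basic helix-loop-helix factor that can turn fibroblasts into muscle. Its region held 1 interval, from 46027437 to 46029083, with 5 summits. The highest, at 6.68-fold (101 reads, 95% interval 82.3 to 123), lay 2781 bp from the gene start and past the gene end. Inside the region the summits lay between 1803 and 2221 bp from the start and reached only 2.16 to 2.75-fold. The Myod1 start had no interval, and the nearest began 1567 bp away.

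Nkx2-5 (ENSMUSG00000015579.7, chromosome 17, 27057638 to 27063983, minus strand) encodes a homeobox factor of the early heart. It had the lowest value of the 10 genes, a lone interval of 278 bp from 27060258 to 27060535 at 2.10-fold (31 reads, 21.1 to 44.0). That interval lay in exon 1 of the canonical transcript, 3641 bp from the gene start. Neither of the annotated transcript starts was covered, and intervals took up 2.97% of the region.

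Gata4 (ENSMUSG00000021944.17, chromosome 14, 63436362 to 63509141, minus strand) encodes a zinc finger factor of heart, gonad and gut. It spans a region of 75780 bp, the longest of the 10, with 10 intervals that covered 7.57% of it. Gata4 has 7 annotated transcript starts, and the canonical one lies 25577 bp inside the gene. The strongest interval, from 63481952 to 63484132, covered that canonical start and reached 12.8-fold (195 reads, 169 to 224) in exon 1, 26301 bp inside the gene. The summit nearest the canonical start, at 25608 bp, reached 3.73-fold. The next, from 63493074 to 63493775, reached 9.10-fold (138 reads, 116 to 163) 15610 bp inside the gene, between the outermost and the canonical start. Its 300 bp window had a GC content of 70.0% and a CpG observed/expected ratio of 1.02, the highest ratio of the 47 windows. The third in strength, at 5.50-fold (83 reads, 66.1 to 103), lay in intron 2 from 63444359 to 63445086 in sequence poor in CpG (ratio 0.0520). The outermost start was covered at 3.73-fold, and the remaining 6 intervals lay between 1.70 and 3.08-fold.

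Neurod1, Pax6, Sox10 and Olig2 act in the nervous system, the eye or the neural crest. Neurod1 (ENSMUSG00000034701.11, chromosome 2, 79282865 to 79287294, minus strand) encodes a basic helix-loop-helix factor of neurons and endocrine pancreas. Its strong interval, from 79284258 to 79285485, did not lie at the start but over coding exon 2, 2614 bp from the gene start, at 12.8-fold (194 reads, 168 to 223). The interval over the gene start, from 79286945 to 79287317, reached 2.49-fold (37 reads, 26.1 to 51.0), and an upstream interval 2.10-fold. The counting intervals of these summits, over the coding exon and over the start, did not overlap. All these intervals also overlap the lncRNA Gm54165 on the other strand, which starts within 1 kb of the coding exon summit. The protein-coding gene Cerkl overlaps the intervals over the coding exon and the gene start. Cerkl also starts within 1 kb of the summit at the Neurod1 start, so ATAC-seq reads cannot be assigned to Neurod1 alone.

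Pax6 (ENSMUSG00000027168.23, chromosome 2, 105499234 to 105530952, plus strand) encodes the paired-box factor of eye, brain and pancreatic islets. It had 11 intervals with 68 summits, and they covered 61.7% of its region. The interval over the gene start, from 105496824 to 105501305, held 13 summits, of which the highest (6.02-fold, 91 reads, 73.3 to 112) lay 1184 bp upstream and the one nearest the start (4.71-fold) 54 bp upstream. The strongest interval ran over 6827 bp of intron 1, from 105501525 to 105508351, with 21 summits. Its highest summit, at 13.2-fold (201 reads, 174 to 231), lay 6550 bp from the gene start, beside an annotated alternative start at 6544 bp. A further summit 7417 bp from the start reached 10.5-fold. In intron 6, the interval from 105516763 to 105519636 reached 9.49-fold (144 reads, 121 to 170) at 18847 bp. Pax6 has 29 annotated transcript starts, of which 24 were covered. Toward the gene end the intervals fell to 1.70-fold, and those past 20 kb also overlap Elp4, which is read from the other strand.

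Sox10 (ENSMUSG00000033006.12, chromosome 15, 79039108 to 79049469, minus strand) encodes the factor of neural crest, Schwann cells and oligodendrocytes. Its 5 intervals lay between 1.70 and 2.68-fold (25 to 40 reads), and the highest sat over coding exon 4 near the gene end. The gene start itself was bare, while the canonical start 773 bp inside was covered at 2.42-fold.

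Olig2 (ENSMUSG00000039830.11, chromosome 16, 91019435 to 91025567, plus strand) encodes the factor of oligodendrocytes and motor neurons. It had 6 intervals, the most per length of the 10 genes at 6.57 per 10 kb, and none passed 2.55-fold (38 reads, 26.9 to 52.2). The narrowest, from 91022139 to 91022283, was 145 bp wide and gave that highest value. None of its 3 transcript starts was covered, although an interval began only 102 bp from the gene start and the strongest one ended just before the canonical start at 91022298. Olig1, the related gene within 100 kb of Olig2, had an interval over its own start at 7.33-fold.

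Pdx1, Nkx2-1 and Cdx2 act in endoderm. Pdx1 (ENSMUSG00000029644.8, chromosome 5, 147206769 to 147212658, plus strand) encodes the homeobox factor of pancreas and duodenum. Its interval over the start, from 147206752 to 147207156, reached 3.67-fold (55 reads, 41.4 to 71.6) and also touches the antisense lncRNA Plut. The other, in coding exon 2, reached 1.83-fold.

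Nkx2-1 (ENSMUSG00000001496.17, chromosome 12, 56578742 to 56583722, minus strand) encodes the homeobox factor of thyroid, lung and ventral forebrain. Here the intervals were broad and low. The main one, from 56579752 to 56583701, ran over 3950 bp with 13 summits from 2.23 to 4.39-fold (33 to 66 reads), stopped 21 bp short of the gene start and covered the canonical start. Its highest summit lay in coding exon 2. The remaining upstream intervals reached 2.36 and 2.03-fold, and together the 3 intervals covered 59.3% of the region.

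Cdx2 (ENSMUSG00000029646.5, chromosome 5, 147237615 to 147244091, minus strand) encodes the homeobox factor of intestine and trophectoderm. Its 5 intervals lay between 1.70 and 2.55-fold (25 to 38 reads). The one over the start reached 2.42-fold (36 reads, 25.2 to 49.8), and the highest lay in the 3′ UTR.

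**Figure D1:**
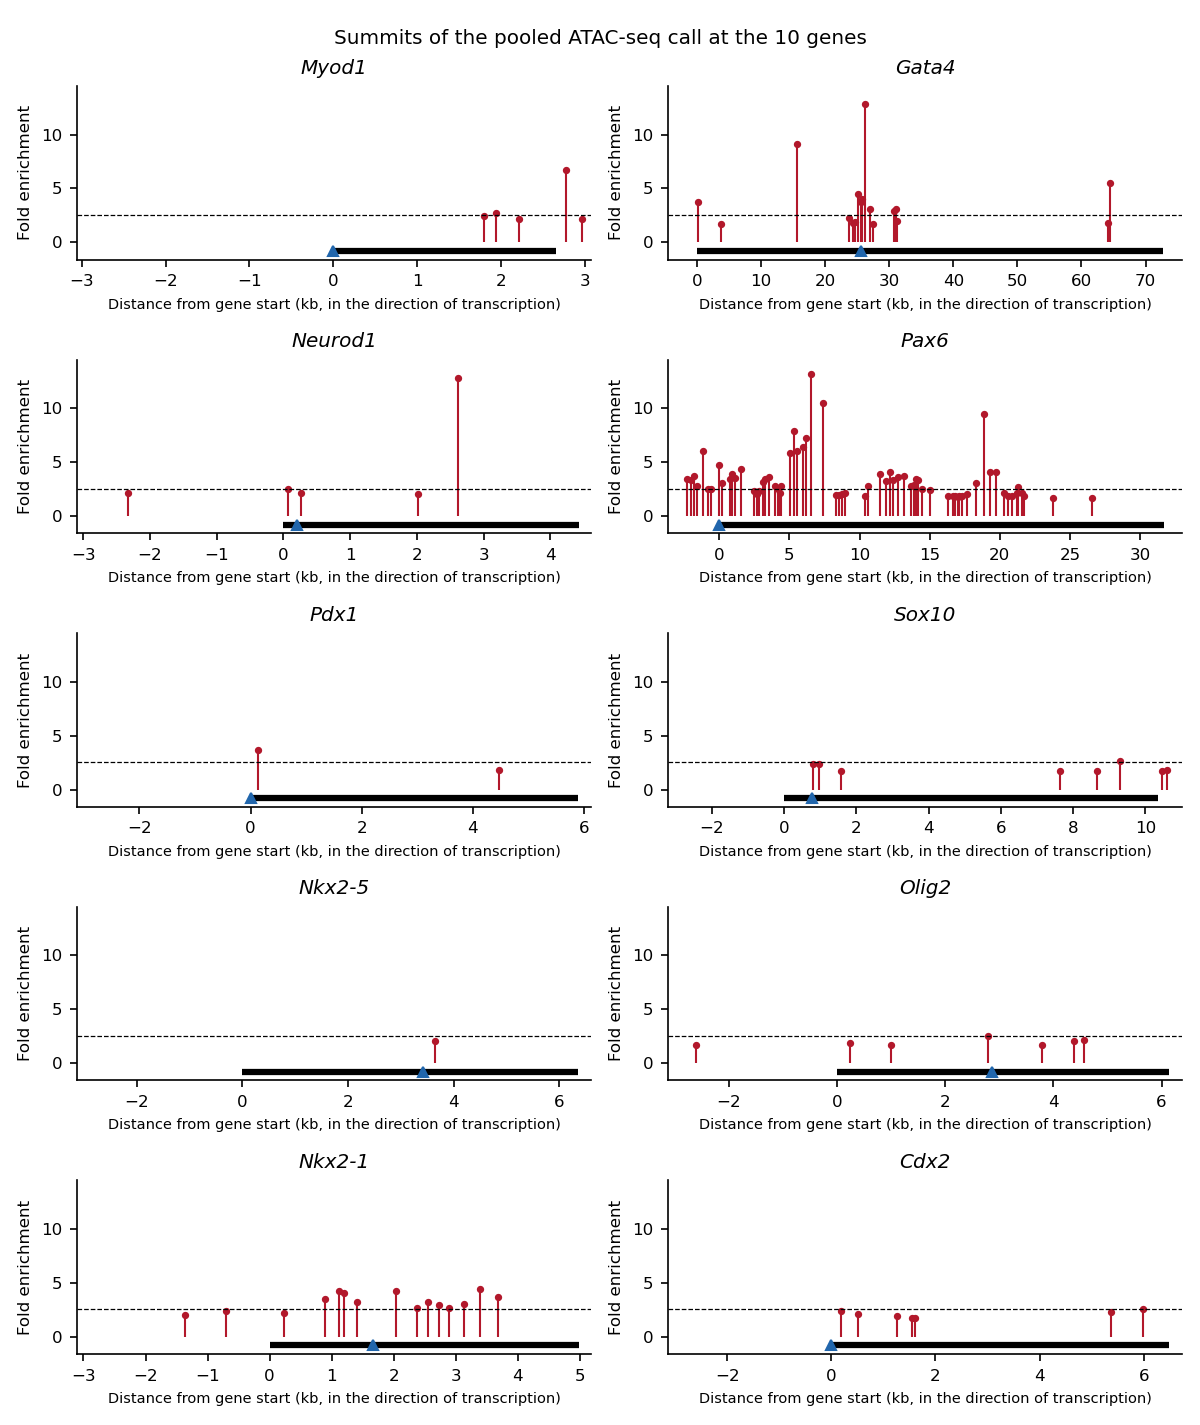
Fold enrichment (y axis) of every summit in the intervals of each gene against its distance from the gene start in kb (x axis). The black bar is the gene, the blue triangle the canonical transcript start and the dashed line the median of all intervals, 2.55. Only Myod1, Neurod1, Gata4 and Pax6 have summits above 5, and in all 4 these lie over 1 kb from the gene start.

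By reads at their strongest summit the 10 genes fell into an order whose neighbours mostly overlapped in counting error. Pax6 (201 reads), Gata4 (195) and Neurod1 (194) had overlapping intervals, all above that of Myod1 (101 reads, 82.3 to 123). Nkx2-1 (66 reads, 51.0 to 84.0) overlapped both Myod1 and Pdx1 (55 reads). Sox10 (40), Olig2 (38), Cdx2 (38) and Nkx2-5 (31) could not be ordered among themselves, Pdx1 overlapped each of them, and their intervals, between 21.1 and 54.5 reads, include the median of all intervals.

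**Figure D2:**
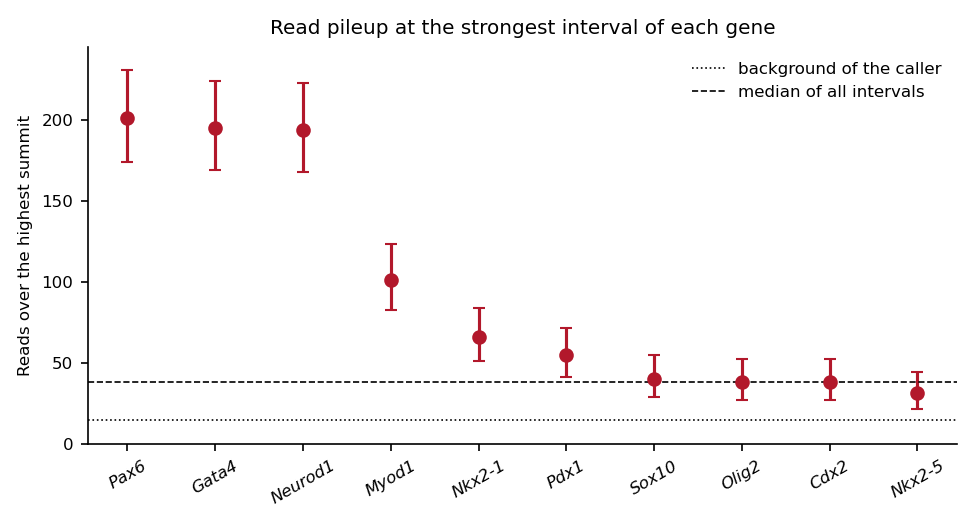
Reads over the highest summit of the strongest interval of each gene (points) with exact Poisson 95% intervals (bars). The dotted line is the background of 14.3 reads and the dashed line the median of all intervals, 38 reads. Pax6, Gata4 and Neurod1 stand near 200 on the axis and Sox10, Olig2, Cdx2 and Nkx2-5 near the median.

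Set beside the whole annotation, the 10 genes did not lack intervals, but the highest value of each lay below the median of protein-coding genes. All 10 had an interval in the region, beside 83.2% of protein-coding genes, and the 10 counted 3.46 intervals per 10 kb in the median, beside 1.86. A fold enrichment of at least 5 was found at 4 of the 10, beside 74.7% of protein-coding genes. The median of the highest fold enrichment was 4.03 for the 10 genes and 24.3 for all protein-coding genes. Genes without an interval counted as 0 in this and the later medians of the highest fold enrichment. Pax6 exceeded 37.1% of protein-coding genes and Nkx2-5 18.6%, counting genes without an interval as lower. Among the 6737 protein-coding genes with a region of 5 to 15 kb, a range added after seeing that most of the 10 are short, the median was 10.5 and 57.9% reached 5-fold. Against these genes Neurod1 exceeded 52.3% and Nkx2-5 33.2%. Pax6 and Gata4 exceeded 52.8% and 52.4% of them, but their own regions, of 34719 and 75780 bp, lie outside that range.

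Regulators that the kidney uses had higher values, in a list that was also drawn up with earlier results of these data known. All 26 genes of the kidney list (transcription factors of nephron development and of tubule, podocyte and collecting duct) had an interval. Their median highest fold enrichment was 29.0. Their regions had a median length of 26538 bp, beside 9240 bp for the 10 genes, and the part of length was not tested. Of the 26, 20 (76.9%) reached 20, beside none of the 10 genes and 55.3% of protein-coding genes. The highest were Sim1 at 54.3 and Tfcp2l1, a factor of distal tubule and collecting duct, at 51.3. The lowest were Foxi1, the factor of intercalated cells, at 4.65 and Wt1, the podocyte factor, at 9.76. Foxi1 thus lay inside the range of the 10 genes, as did Wt1. Over the gene start, 25 of the 26 (96.2%) had an interval, beside 5 of the 10 genes here and 68.4% of protein-coding genes. The median over the covered starts was 24.8-fold for the kidney list and 3.67-fold for the 10 genes.

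The 44 regulators of the same foreign lineages that were listed beside the 10 had a median of 5.96 and reached 20 in 4 cases. Mafa, a factor of pancreatic beta cells, had 54.0 and Mitf, the melanocyte factor with an isoform in many tissues, 52.1, while Neurod6, Neurog3 and Crx had no interval. The following relatives were named after their values were seen. Among paired-box genes the highest fold enrichment was 43.9 in Pax8 and 39.5 in Pax2, both of the nephron, 13.2 in Pax6, 7.79 in Pax3 and 2.82 in Pax7. Over the gene start it was 43.9 in Pax8, 7.33 in Pax2, 6.02 in Pax6 and 5.04 in Pax3, and Pax7 had no interval there. Among GATA genes the highest fold enrichment in the region was 41.4 in Gata3, of the collecting duct, 12.8 in Gata4 and 5.96 in Gata5. Among caudal genes Cdx1 reached 26.6 and Cdx4 7.40, both above the 2.55 of Cdx2. The 26.6 of Cdx1 lay away from its start, where the interval reached 2.75-fold, beside 2.42 over the start of Cdx2. Cdx4 had no interval over its start, and its 7.40 lay within 1 kb of it. The muscle factors Myf5, Myf6 and Myog lay at 1.90, 3.67 and 1.96. The 6.68 of Myod1 comes from the summit past its gene end, and the summits inside its region, at most 2.75, lay below the value of Myf6. Neurod2 and Neurod4 lay at 3.93 and 3.60, below the 12.8 of Neurod1.

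**Figure D3:**
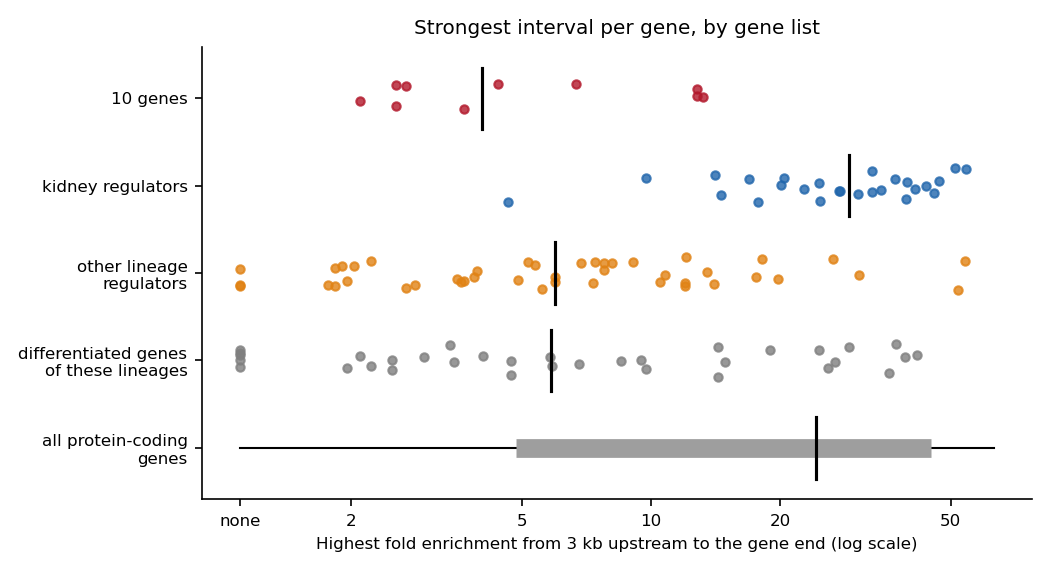
Highest fold enrichment per gene (x axis, log scale, genes without an interval at none) for the 10 genes, the kidney regulators, the other lineage regulators and differentiated genes of these lineages. Points are genes and vertical bars medians (4.03, 29.0, 5.96 and 5.86). The last row gives all protein-coding genes as the median (24.3), the central quartiles (grey) and the range from the 10th to the 90th percentile (line). All 10 genes lie at or below 13.2, and 20 of the 26 kidney regulators lie at 20 or above.

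The starts of the 10 genes were compared with starts that pass the same cut in base composition. A start was taken as CpG-rich when the 500 bp on either side had a GC content of at least 50% and a CpG observed/expected ratio of at least 0.6, which held for 40.5% of protein-coding genes and for 4 of the 10 (Neurod1, Nkx2-5, Nkx2-1 and Cdx2). An interval lay over the start of 5 of the 10 genes, beside 68.4% of protein-coding genes. Of the 4 CpG-rich ones it did so at Neurod1 and Cdx2, beside 97.7% of protein-coding genes with a CpG-rich start. An interval whose highest summit lay within 1 kb of the start reached 5-fold in 0 of these 4, beside 90.4%. These 4 starts lay just above the cut, at ratios of 0.616 to 0.650, while the compared starts include every higher ratio. The part of this difference in the shares was not tested.

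The annotated start of a gene is that of its outermost transcript, so the canonical transcripts were examined too. Their starts lie inside the gene by 196 bp in Neurod1, 773 bp in Sox10, 1668 bp in Nkx2-1, 2863 bp in Olig2, 3418 bp in Nkx2-5 and 25577 bp in Gata4. An interval lay over the canonical start of 7 of the 10, beside 71.2% of protein-coding genes, and Myod1, Nkx2-5 and Olig2 had none. The CpG-rich canonical starts were those of Neurod1, Nkx2-1, Olig2 and Cdx2, with ratios of 0.619 to 0.720. Of these, 3 were covered, at 2.42 to 4.39-fold, beside 98.0% of protein-coding genes with a CpG-rich canonical start. Over the outermost gene starts, the 5 covered ones had 2.42 to 6.02-fold with a median of 3.67, beside a median of 31.6 over the covered gene starts of protein-coding genes and 7.27 over those of the other lineage regulators listed.

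The 60 bases before the canonical start are shown for 3 of these CpG-rich starts and for Myod1, with each CpG in capitals. The Nkx2-1 run lies inside its broad interval, the interval over the Cdx2 start ends within the run at 147244112, most of the Olig2 run lies in the interval that ends at 91022283, and the Myod1 run lies in none.
Nkx2-1, chr12:56582055-56582114: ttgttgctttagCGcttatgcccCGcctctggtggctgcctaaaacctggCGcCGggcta
Cdx2, chr5:147244092-147244151: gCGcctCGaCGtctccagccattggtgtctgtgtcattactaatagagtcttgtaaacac
Olig2, chr16:91022238-91022297: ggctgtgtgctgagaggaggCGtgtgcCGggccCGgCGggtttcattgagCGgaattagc
Myod1, chr7:46025810-46025869: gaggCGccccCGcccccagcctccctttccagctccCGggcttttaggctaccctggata

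These runs held 5 CpGs in Olig2, 4 in Nkx2-1 and 3 each in Cdx2 and Myod1.

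**Figure D4:**
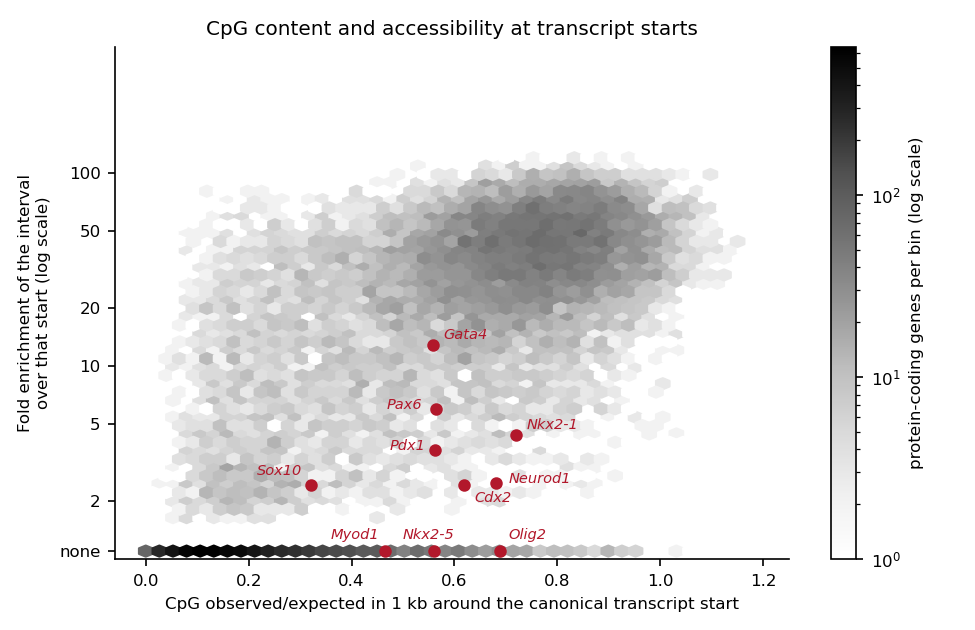
CpG observed/expected ratio in the 1 kb around the canonical transcript start (x axis) against the fold enrichment of the interval over that start (y axis, log scale, none where no interval lies there). Grey bins count all protein-coding genes and red points are the 10 genes. The 7 covered starts lie between 2.42 and 12.8, below the dense cloud of CpG-rich genes, and Myod1, Nkx2-5 and Olig2 lie at none.

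The accessible DNA at the 10 genes was richer in CpG than that of all intervals, which also include intervals outside genes. In 300 bp around the highest summits the median GC content was 57.7% and the median CpG observed/expected ratio 0.507, beside 49.3% and 0.195 for all intervals. The highest summit lay in an intron of the canonical transcript in 15 intervals, in a coding exon in 10, before the canonical start in 15, in the 5′ UTR in 5, in the 3′ UTR in 1 and past the gene end in 1.

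Short motifs were searched by exact match on both strands of these 300 bp windows. The SP/KLF box GGGCGG, bound by factors of CpG-rich promoters, occurred in 15 of 47 windows (31.9%), beside 10.1% of all intervals, and the NFI site TTGGCA in 13 (27.7%), beside 18.6%. The AP-1 motif TGANTCA occurred in 4 (8.51%), beside 15.2%, and the GATA motif AGATAA in 4 (8.51%), beside 11.9%. The HNF1 motif GTTAATNAT was in 0 of 47 windows, beside 1.58%, and the NRF1 motif GCGCATGCG also in 0, beside 0.241%. The CTCF core AGGNGGCGC was found in 2 windows (4.26%), beside 1.36%. These are the intron 6 window of Pax6, where it stands in capitals above, and the strongest window of Nkx2-1. The HNF4 motif CAAAGTCCA was found in 1 window, the strongest of Gata4 at 12.8-fold, beside 1.05% of all intervals. The E-box CAGCTG, a form that MyoD itself binds, lay near the 6.68-fold summit of Myod1 and in 9 windows in all (19.1%), beside 20.1%. The letters TTCAGCACC, part of the REST motif, lay in 1 window, in Pax6 at 2.68-fold, beside 0.456%, the ETS motif CCGGAAGT in 1, in Olig2 at 1.70-fold, beside 0.751%, and the homeobox motif TAATTA in 1, in Pax6 at 2.42-fold, beside 6.25%. The part of GC content in these shares was not tested, and a match does not show that a factor was bound.

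The nearest summit of at least 20-fold was a median of 100496 bp from the start of the 10 genes, beside 117678 bp for the other lineage regulators, 18851 bp for protein-coding genes with a region of 5 to 15 kb, 6775 bp for all protein-coding genes and 2162 bp for the kidney regulators. It was 20353 bp away for Myod1, near the start of Kcnc1, and 24004 bp away for Sox10, at the start of 1700088E04Rik. Pdx1 and Cdx2 lie on the same stretch of chromosome 5 and share the nearest one, at the start of Pan3, 160469 bp and 123147 bp away. For Olig2 and Nkx2-1 it was 148862 bp and 133802 bp away. Within 10 kb of the gene ends, but outside the regions, the highest values were 21.3-fold at the start of Neil2 past Gata4, 13.4-fold past Cdx2 and 11.2-fold before Nkx2-1. Myod1 had no interval in these flanks.

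The tissue label was checked against marker genes by the highest fold enrichment in the same kind of region. Markers of proximal tubule (Lrp2, Slc34a1, Slc5a2 and Cubn) reached 7.40 to 33.1, of thick limb and distal tubule (Slc12a1, Umod and Slc12a3) 15.6 to 38.2 and of collecting duct (Aqp2 and Atp6v1b1) 7.46 and 22.7. The podocyte gene Nphs1 reached 3.54. Kdr and Pecam1 of endothelium reached 8.64 and 14.8, Ptprc of immune cells 11.9, Pdgfrb of stroma 8.05, Myh11 and Acta2 of smooth muscle 9.23 and 7.20, and Adipoq of adipocytes 9.82. Of the adrenal genes, Star reached 10.5 and Cyp11b1 had no interval. Many of these markers thus lay within the range of the 10 genes, 2.10 to 13.2.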

How the data were processed

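ATAC-seq libraries of 3 WT and 3 Acly cKO kidneys were grouped by their labels. After fastp trimming, the authors mapped reads to mm39 (Bowtie2 2.3.4.3), kept unique non-duplicate reads, called peaks with MACS3 3.0.0 (no model, extension 200, shift given as 100, q 0.05) and filtered regions with bedtools 2.29.1. The deposited list gives the fold enrichment (a ratio), the −log10 p and −log10 q and a score by the authors' caller, and the deposited summits the same −log10 q. No column belongs to a library, so the depth of each is unknown. The sign of that shift, which would move summits, was not checked.

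Summits were grouped into distinct intervals and overlapped with GENCODE M39 on GRCm39. No summit in the 10 regions was absent from the filtered list. Named were all 10 genes with their strongest intervals and, per list, the 2 genes at each end and neighbours within 100 kb. The members and lists were chosen with earlier results of these data known. The computations were tested on simulated data. Python 3.11.15, numpy 2.4.6, scipy 1.17.1, pandas 2.3.3, pysam 0.24.0, samtools 1.23.1 and matplotlib 3.10.9 were used. Some marker genes and 1 sequence are not reported here.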

Additional observations from a re-analysis of the deposited data

How the results depend on the processing

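The base composition at canonical starts and the 5 to 15 kb range were added after seeing the data. The 47 intervals at the 10 genes became 22 at a q under 1e-05, 8 at a fold enrichment of at least 5, 84 with 10 kb on either side and 135 when summits were counted. At a fold enrichment of at least 5, the 10 genes with an interval became 4 and the 5 with an interval over the gene start became 1, Pax6. The median highest fold enrichment of the 10 genes, 4.03, was 9.20 with 10 kb on either side. It was 3.18 when the highest summit had to lie in the region, which leaves Myod1 without an interval. For intervals within 1 kb of the gene start, where Myod1 and Nkx2-5 have none, it was 2.46. In these medians a gene without an interval counts as 0, which lowers them. The remaining alternatives kept counts within 1.5 times. Each median stayed below the 24.3 of all protein-coding genes, whose value was not recomputed under them. No paired analysis was possible because libraries are not separated in the deposited call, and no replicate could be left out either.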

Other observations

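The other regulators of these lineages differed among themselves, and the genes named here beyond the highest and lowest of each list were chosen after their values were seen. In the neural group, the highest fold enrichment was 19.8 in Neurog2 and 18.2 in Atoh1, while Neurod6 had no interval. In the heart group, Tbx20 reached 10.8 and Hand1 1.83. In the eye group, Rax reached 30.6 away from its start and Six6 2.23, while Crx had no interval. Of the 44 genes, 29 (65.9%) had an interval over the gene start, near the 68.4% of all protein-coding genes, beside 5 of the 10 genes described above.

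Of 34 differentiated genes of these lineages, 29 had an interval, beside 83.2% of all protein-coding genes. Over the gene start 10 of the 34 (29.4%) had one, beside 68.4%. The median highest fold enrichment of the 34 was 5.86 when genes without an interval count as 0. Lct, the intestinal lactase, reached 41.8 away from its start, and Mbp, of myelin, 39.1 over its start. Acta1, Myh1, Iapp, Tyr and Sis had no interval. The insulin genes Ins1 and Ins2 reached 1.96 and 3.40.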
